A study of Mus musculus with 4 samples.

Results

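The regions described here are the 360 places in the mouse genome at which the histone mark H3K9ac was assigned to control choline, out of 45855 places called different between control and supplemented choline. They make up 0.785% of the list, and the other 45495 regions were assigned to supplemented choline. They were chosen by the name that the list gives each region: the names carry the order of the comparison, with 5 first and 70 second, and the first of the 2 conditions is read here as 5 µM choline chloride. Every statement on direction rests on that reading.

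The material was HT22, an immortalised mouse hippocampal neuronal line, grown with 10% fetal bovine serum; the control cells (CON) had 5 µM and the supplemented cells (SUP) 70 µM choline chloride, each for 48 h. No genotype, allele or other agent separates the groups, and both were the same line, so what an immortalised line can show limits both alike. Of the 4 libraries, 2 were input DNA and 2 were H3K9ac immunoprecipitates, and the labels do not say which of them had which choline level. At most 1 ChIP library thus stood for a level, the difference has no replicate check, and no p-value is given. Regions that both levels share are not in the list, so a gene without a region may still carry H3K9ac, and the cell type could not be checked against its markers from this list. Shares are followed by exact (Clopper-Pearson) 95% intervals, which cover only the counting of regions or genes. How deeply each library was read is unknown.

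H3K9ac is the acetyl group on lysine 9 of histone H3. Acetyltransferases of the GCN5 and PCAF family place it and deacetylases remove it, and it sits on the nucleosomes around active promoters and enhancers, with a gap at the nucleosome-free site where factors bind. AP-1 is a dimer of Fos and Jun proteins that binds a short palindrome and is common at enhancers far from start sites in growing cells and in stimulated neurons. Choline feeds phosphatidylcholine, acetylcholine and, through betaine, the methyl groups of methionine.

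Sequences of 5 regions are shown because they are among the 6 highest-scoring of the regions over 1 kb from every annotated start that hold an AP-1 motif inside the region itself and touch no exon. The motif, TGANTCA, is in capitals. All are plus-strand mm10 sequence, 5′ to 3′, read from RefSeq GRCm38.p6.
Dst, intron 2, chr1:34109967-34110101: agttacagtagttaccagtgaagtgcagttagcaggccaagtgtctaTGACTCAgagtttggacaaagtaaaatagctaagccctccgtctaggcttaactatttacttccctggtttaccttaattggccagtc
Tmem86a, upstream, chr7:47031550-47031722: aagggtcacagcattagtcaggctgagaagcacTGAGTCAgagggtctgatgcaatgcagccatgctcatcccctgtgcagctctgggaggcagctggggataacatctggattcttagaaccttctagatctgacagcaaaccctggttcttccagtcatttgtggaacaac
Kirrel, intron 1, chr3:87151730-87151918: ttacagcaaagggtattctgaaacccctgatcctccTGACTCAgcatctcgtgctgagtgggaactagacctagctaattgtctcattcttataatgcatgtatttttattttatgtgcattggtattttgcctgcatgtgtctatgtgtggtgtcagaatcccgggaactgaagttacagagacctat
S100a11, intron 1, chr3:93523393-93523531: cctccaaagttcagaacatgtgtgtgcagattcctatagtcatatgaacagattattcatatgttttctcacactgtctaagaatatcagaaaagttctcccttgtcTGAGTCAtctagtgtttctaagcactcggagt
Mef2d, upstream, chr3:88140228-88140353: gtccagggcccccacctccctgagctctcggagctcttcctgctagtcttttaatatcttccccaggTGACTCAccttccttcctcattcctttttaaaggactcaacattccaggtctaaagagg

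For contrast, 3 regions at start sites are shown, the highest-scoring ones that hold any motif searched and touch no exon. Capitals mark CCAAT and the SP/KLF word CCCGCCC at Vcan, the SP/KLF word GGGCGGG at Dock1, and the glucocorticoid receptor hexamer TGTTCT and the RUNX word AACCACA at Tef.
Vcan, chr13:89742597-89742745: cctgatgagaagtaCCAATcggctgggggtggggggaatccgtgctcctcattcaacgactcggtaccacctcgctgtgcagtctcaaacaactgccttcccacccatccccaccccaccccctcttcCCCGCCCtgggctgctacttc
Dock1, chr7:134670472-134670634: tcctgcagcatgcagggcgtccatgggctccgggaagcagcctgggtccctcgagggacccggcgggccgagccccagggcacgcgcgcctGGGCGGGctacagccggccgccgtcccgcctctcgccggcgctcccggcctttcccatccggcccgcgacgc
Tef, chr15:81810198-81810340: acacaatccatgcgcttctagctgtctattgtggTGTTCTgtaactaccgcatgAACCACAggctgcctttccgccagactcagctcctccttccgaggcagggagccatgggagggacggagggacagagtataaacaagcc

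The 360 regions lay on every chromosome except Y. Chromosome 11 had the most, 28, and chromosome X the fewest of those with any, 6. Set against all listed regions of a chromosome, their share was highest on chromosome 13 (19 regions, 1.53%, interval 0.925 to 2.38) and chromosome 10 (22 regions, 1.33%, interval 0.834 to 2.00). It was lowest on chromosome 15 (18 regions, 0.467%, interval 0.277 to 0.736), chromosome 17 (0.468%) and chromosome 19 (0.468%). These low shares stood on chromosomes dense in 70 µM regions: chromosome 15 had 369 of them per 10 Mb and chromosome 13 had 101, whereas the 5 µM regions numbered 1.73 and 1.58 per 10 Mb. Per length, the 5 µM regions were thus about as dense on chromosome 15 as on 13, and it was the number of 70 µM regions that differed.

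**Figure D1:**
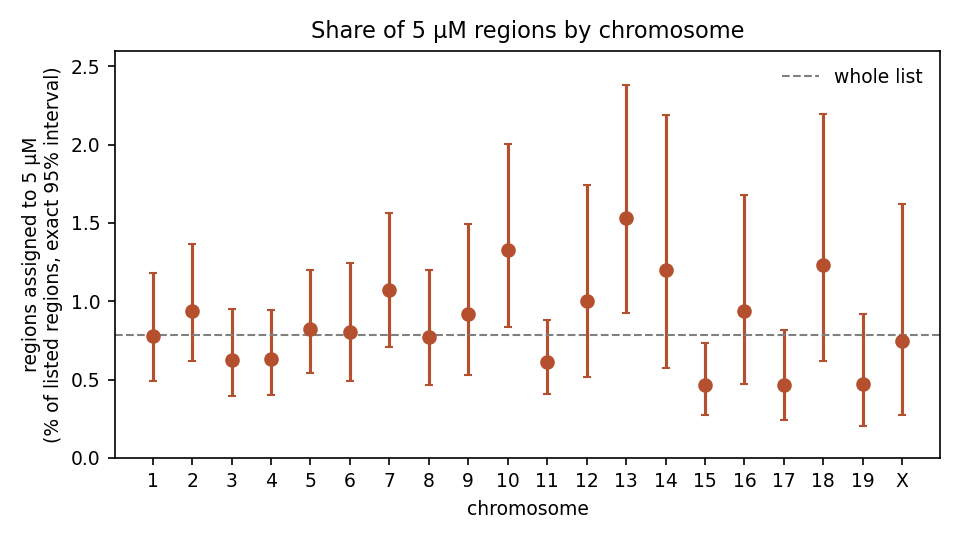
Share of listed regions assigned to 5 µM choline on each chromosome, in percent, with exact 95% intervals; the dashed line is the share over the whole list, 0.785%. Chromosome 13 stands highest at 1.53% and chromosome 15 lowest at 0.467%; Y, with no such region, is not drawn.

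By place, 169 of the 360 regions lay at a start site, meaning no more than 1 kb from where some transcript of a protein-coding gene begins (46.9%, interval 41.7 to 52.3). Of the 70 µM regions, 28.9% did (interval 28.5 to 29.3). A further 109 lay in introns (30.3%), 67 between genes (18.6%) and 15 in exons (4.17%), against 39.2%, 24.9% and 6.97% of the 70 µM regions. Among the intronic ones, 61 of 109 were in the first intron of the longest transcript of their gene that spans the midpoint. Of these, 6 were in 1 very long gene, Gm20388, at positions from 120224773 to 123884764 on chromosome 8, which also takes in other genes. The share in first introns was not counted for the 70 µM regions. Of the 15 in exons, 4 had their midpoint in coding sequence. Regions of which over 50% of the bases are repeat-masked were 7.78% of the 5 µM regions and 13.9% of the 70 µM regions. No test of these differences was made, since the regions of a level come from 1 comparison and are not replicates of it.

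Each region comes with a score that the authors gave it, which describes the same contrast that chose the regions. It ran from 3.41 to 29.5 with a median of 10.8. The 3 lowest values were 3.413, 3.414 and 3.419. Regions below the authors' cutoff were not analysed here. Start-site regions had the lowest median, 8.30, then introns with 11.3, intergenic regions with 13.7 and exons with 14.6. The ranges of the 4 places overlapped, and the strongest region of all was at a start. The regions were short, between 120 and 353 bp, with a median of 149 bp.

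**Figure D2:**
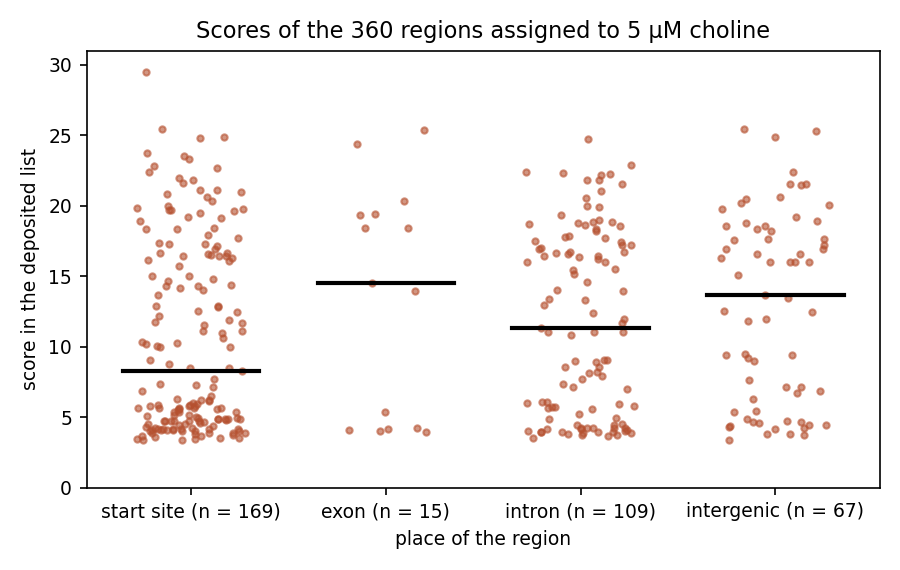
Score of each of the 360 regions in the deposited list (vertical axis, no unit) by place of the region; each point is 1 region and the black line is the median. Medians run from 8.30 at start sites to 14.6 in exons, and the single region above 29 lies at a start site.

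The start-site regions reached 193 protein-coding genes, 0.880% of the 21938 annotated (192 symbols, since Ndor1 has 2 identifiers). No gene had more than 1 such region at its starts, and 21 of the 169 regions reached more than 1 gene. Noncoding genes within the same distance were few: 7 antisense genes, 6 lincRNA genes and 3 miRNA genes, among others.

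The strongest start-site region, with a score of 29.5, was at 18498879 to 18499069 on chromosome 16, centred 34 bp downstream of a start of Gnb1l, which encodes a G protein beta subunit-like protein, and within 1 kb of a start of Rtl10, a retrotransposon-derived gene. It was 68.6% G and C and held 18 CpG sites, so it had the makeup of a CpG-rich promoter. Next among the start-site regions came that at Vcan, which encodes the extracellular matrix proteoglycan versican, centred 162 bp upstream of a start with a score of 25.4. Its sequence, shown above, was 61.7% G and C with 6 CpG sites. Both genes also carried 70 µM regions at their starts, 1 at Gnb1l and 2 at Vcan, with scores of at most 4.85 and 5.34.

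The regions at Znfx1, an RNA helicase-like gene of antiviral defence (score 24.9), and Trmt12, a tRNA modification gene (24.8), lay near the far end of the window, 998 and 930 bp downstream of the start. Lyrm2, a mitochondrial gene of complex I, had a score of 23.7 and no 70 µM region at its starts. Dixdc1, a DIX-domain gene of Wnt signalling (23.6), and Dock1, which activates the small GTPase Rac (23.3), had 70 µM regions 105 and 274 bp from the edge of the 5 µM region. At Tet3, a dioxygenase that oxidises methylcytosine, 3 regions at 70 µM stood at the starts beside the 5 µM region with its score of 22.9. Tef, a clock-output transcription factor of the PAR bZIP family (22.7), and Pam, which amidates neuropeptides (22.4), followed with 3 regions at 70 µM each. Zdhhc8, a palmitoyltransferase gene, had 22.0, Echdc3 21.8, Kif20a, a mitotic kinesin gene, 21.7, and Bcorl1, a BCL6 corepressor-like gene, 21.1. Of the 15 highest-scoring genes, Lyrm2, Echdc3 and Bcorl1 had no 70 µM region at a start.

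The 5 widest start-site regions lay at the DNA repair gene Xrcc3 (289 bp, score 4.83), the ARF exchange factor gene Cyth3 (281 bp, 10.0), the calpain subunit gene Capns1 (280 bp, 14.8), the mitotic gene Ckap2 (264 bp, 19.2) and the potassium channel subunit gene Kcnab1 (248 bp, 14.4).

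Within the start-site window, the 5 µM regions were placed about evenly before and after the start. Of 169, 83 had their midpoint upstream of the nearest coding start (49.1%, interval 41.4 to 56.9), and of 13147 start-site regions at 70 µM, 37.1% did (interval 36.3 to 38.0). The fullest 250 bp bin for the 5 µM regions was the one just upstream, with 43 regions (25.4%, interval 19.1 to 32.7), where 15.1% of the 70 µM regions lay. In the bin from 250 to 500 bp downstream the order was the other way: 9.47% of the 5 µM regions (interval 5.51 to 14.9) and 16.3% of the 70 µM regions. The median distance from the start was 302 bp for 5 µM and 372 bp for 70 µM. The shape of the 2 distributions was not tested.

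**Figure D3:**
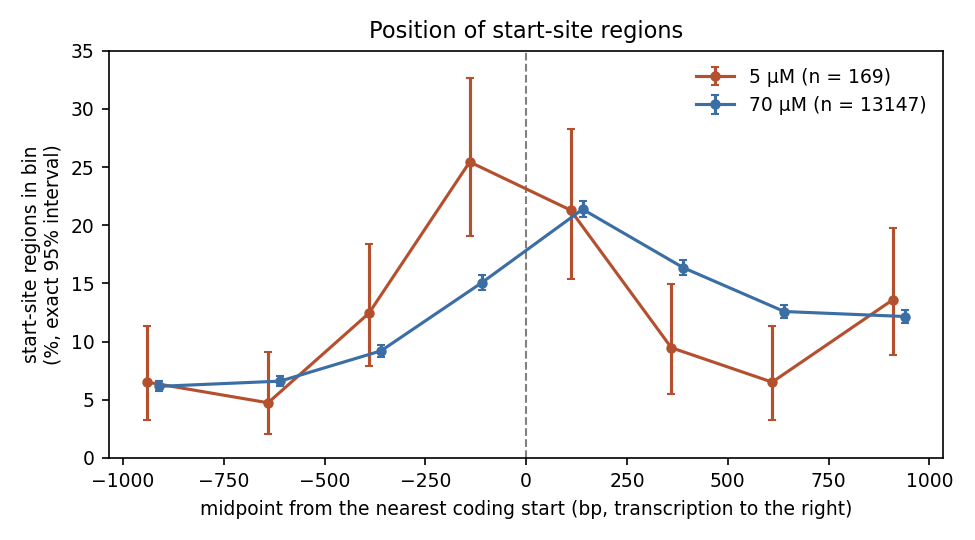
Midpoints of start-site regions relative to the nearest coding start (horizontal axis, bp, transcription to the right; inner bins 250 bp wide, the outermost 350 bp), as percent of the 169 regions at 5 µM and of the 13147 at 70 µM, with exact 95% intervals. The 5 µM regions peak just upstream of the start at 25.4% and the 70 µM regions just downstream at 21.4%.

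Most 5 µM start-site genes carried a change in the other direction as well: 130 of the 193 (67.4%) had a 70 µM region within 1 kb of a start, beside 39.2% of all protein-coding genes. That base takes in lists as unlike as the olfactory and vomeronasal receptors (0.776%) and the ribosomal protein genes (84.2%). No share over genes active in these cells was available, so whether 67.4% goes beyond it was not tested. The 63 other genes had no 70 µM region within 1 kb of a start. Their 5 µM region could still have one close by, as at Pim3 (178 bp away) and Slc17a5 (635 bp). For 115 of the start-site regions the nearest coding gene was one with both, and there the nearest of the 70 µM regions at starts of that gene was a median of 882 bp away, midpoint to midpoint. A 70 µM region outside the start windows of the gene could be nearer, as at Ankrd54, and was not counted here. The one at a start lay downstream, in the direction of transcription, in 72 of the 115 (62.6%, interval 53.1 to 71.5). At the Cebpb promoter, for example, the 5 µM region was centred 112 bp before the start and the 70 µM region 938 bp after it. At Junb it was the reverse, with the 5 µM region 356 bp after a start and the 70 µM region 700 bp before one. A downstream lean of the 70 µM regions was not particular to these pairs. Of all start-site regions, 37.1% at 70 µM and 49.1% at 5 µM had their midpoint upstream of the nearest coding start. Whether the 62.6% goes beyond that was not tested. Measured from its own nearest start, the 5 µM region was the closer one in 65 of 115 (56.5%, interval 47.0 to 65.7), which is about as often as not. In 99 of the 115 the midpoints were within 2500 bp; in the rest the pair sat at different annotated starts, as at Col1a2, where they were 25101 bp apart.

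Counted over all places, 158 of the 360 regions had a 70 µM region within 1 kb, edge to edge (43.9%, interval 38.7 to 49.2). Of the 70 µM regions, 26.1% had another 70 µM region that close. The list assigns each place to 1 level, so the absence of overlap between 5 µM and 70 µM regions is no result. The smallest gap was 53 bp. At start sites the 2 shares were 51.5% (interval 43.7 to 59.2) and 47.8%, with overlapping intervals. Away from start sites they stood further apart: 35.8% (interval 26.8 to 45.5) against 18.3% in introns, 34.3% (interval 23.2 to 46.9) against 14.2% between genes, and 9 of 15 against 22.3% in exons. Within 5 kb, 88 regions had a 70 µM region on both sides, 160 on 1 side and 112 on neither, and 20 had none within 50 kb.

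**Figure D4:**
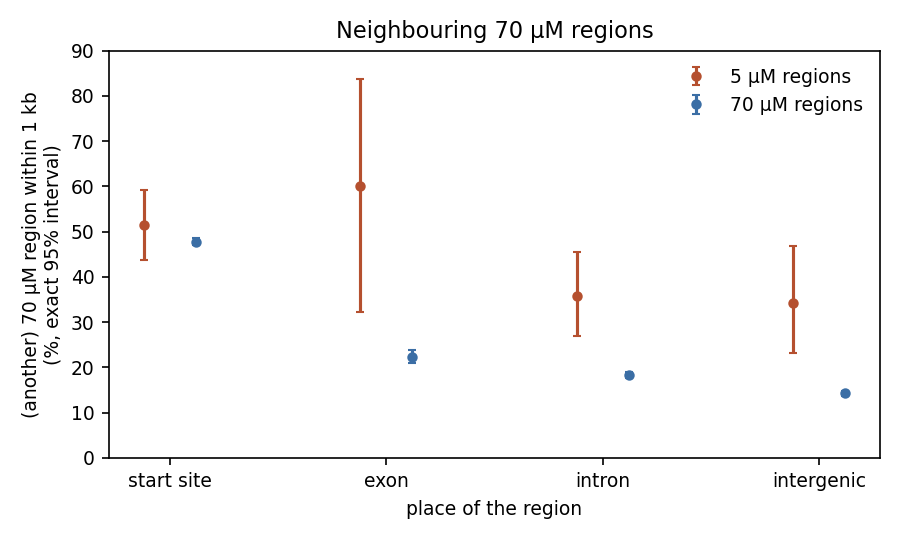
Share of 5 µM regions with a 70 µM region within 1 kb, and of 70 µM regions with another one within 1 kb, by place of the region, in percent with exact 95% intervals. The shares are close at start sites, 51.5% and 47.8%, and apart in introns, 35.8% and 18.3%.

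The closest neighbours were in intron 1 of Micall2, an actin-binding gene, with a gap of 53 bp, and at the starts of Hsd17b12, a fatty acid elongation enzyme gene (58 bp), Tbc1d2b (79 bp), Axl (80 bp) and Zfp638 (87 bp). Gaps of 88 to 109 bp followed in introns of the TGF-beta coreceptor gene Tgfbr3, the semaphorin receptor gene Plxnd1 and the YAP-partner gene Wwtr1, and at the starts of Dixdc1 and Trio. In 8 of these 10 places the score of the 5 µM region was at most 5.98; Tgfbr3 with 15.4 and Dixdc1 with 23.6 were the exceptions. The 5 µM regions themselves were seldom close together: 10 of 360 had another within 5 kb, in 5 pairs. Of the 5 pairs, that at Cebpb, a leucine zipper transcription factor gene, had the highest-scoring weaker member, with 19.6 at the start (80.95% G and C, 26 CpG sites; also within 1 kb of a start of Tmem189) and 21.55 at 167686442 to 167686597 on chromosome 2, 2396 bp upstream.

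Across 26 gene lists, 5 µM start-site regions were few in number. Of 3124 listed genes 20 carried one, 13 lists had no member with one, and 8 had 1 member. The olfactory and vomeronasal receptors made up 1418 of the 3124 genes and had none, so the total leans on that list. Against a background of 0.880% of all protein-coding genes, counts of this size cannot set a list apart, and none is called different. A 70 µM region at a start, found at 39.2% of all protein-coding genes, was carried by between 0.776% of a list (the olfactory and vomeronasal receptors) and 100% (the YAP and TEAD pathway).

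Among transcription factors, Junb, a Jun-family subunit of AP-1, was the only 1 of 17 AP-1 factor genes and of 32 matched immediate early genes with a 5 µM region at a start (score 4.88), beside 3 regions at 70 µM. In the AP-1 list 10 genes had a 70 µM region. Of 39 genes of RNA polymerase II initiation and elongation, 2 had a 5 µM region: Polr2e, a polymerase subunit gene (3.66), and Cdk9, the kinase of the elongation factor P-TEFb (4.04). Both were weak and both genes also had a 70 µM region, which had the higher score at each, 11.2 and 4.38. Of 391 Zfp zinc finger genes, 2 had one, Zfp398 (3.54) and Zfp638 (3.50). Among 37 DNA and histone methylation enzyme genes Tet3 alone had one, and none of 29 acetyltransferase and deacetylase genes did.

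In signalling, Axl, a receptor tyrosine kinase gene and the 1 member of 20 YAP and TEAD pathway genes (score 5.80), and Smurf1, a ubiquitin ligase that targets Smad proteins and the 1 of 25 TGF-beta pathway genes (5.68), had weak regions. The TGF-beta list had more away from the starts: 4 other members held a 5 µM region or were the nearest coding gene to one, as did 0.867% of all coding symbols. These were Ltbp2 (score 19.9), Smad7 (17.2, 23074 bp upstream), Tgfbr3 (15.4) and Ltbp1 (3.55). Ltbp1 and Ltbp2 encode matrix proteins of the latent TGF-beta binding family and Smad7 an inhibitory Smad. Long genes are likelier to hold a region, and gene length was not taken into account. Of 31 actin, focal adhesion and SRF target genes none had a 5 µM region at a start, and 3 had one in their first intron: Tagln2 (13.3), Cald1 (9.10) and Tln1 (7.34), which encode transgelin-2, caldesmon and talin. The share of all genes with a 5 µM region in a first intron was not counted, so the list is not set apart by this. No gene of 31 in the MAP kinase cascade and its feedback had a 5 µM region at a start, and 25 had a 70 µM region there.

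In transport and protein turnover, 3 of 334 solute carrier genes had one: the bicarbonate transporter gene Slc4a7 (5.55), the sialic acid transporter gene Slc17a5 (5.39) and the neutral amino acid transporter gene Slc1a4 (4.14). Of 166 ubiquitin conjugation and protease genes, the F-box genes Fbxl20 (5.15) and Fbxo21 (4.76) had one, and neither had a 70 µM region at a start. Of 76 ribosomal protein genes only Rps27l did (7.37), while 64 had a 70 µM region.

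Cell type markers gave 1 gene each for neurons and mesenchyme. Of 35 genes of mature neurons and synapses, Eno2, the neuronal enolase gene, had a 5 µM region (score 6.27) beside 3 regions at 70 µM, and 8 genes had a 70 µM region. Of 20 fibroblast and mesenchyme genes, Col1a2, a type I collagen gene, had one (5.14) and 15 had a 70 µM region. The astrocyte, oligodendrocyte and microglia lists, 10 genes each, had none at a start. Of the microglia list, 2 of 10 genes, Tmem119 (12.4) and Cx3cr1 (5.61), each held a 5 µM region in an intron. Of all coding symbols, 0.867% held a 5 µM region or were nearest to one, with none at a start. A count of 2 cannot set the list apart, and it does not show a microglial 5 µM region. No cell cycle gene of 36, splicing factor gene of 91, Hox gene of 39 or olfactory and vomeronasal receptor gene of 1418 had one at a start.

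The genes nearest to the question of the series had no 5 µM region at their starts. None of 28 genes of the glucocorticoid receptor and its partners, 32 of choline and phosphatidylcholine metabolism and 31 of the methionine and folate cycle did, while 19, 14 and 18 of them had a 70 µM region. An upper interval bound of 10.9 to 12.3% goes with such counts of 0. Nr3c1 itself (ENSMUSG00000024431.15), the glucocorticoid receptor gene, held no 5 µM region, and the nearest on its chromosome was 3812 kb away. It held 3 regions at 70 µM. Sgk1, a kinase gene that glucocorticoids induce, was the nearest coding gene to a region 47495 bp upstream of it, which lay in an exon of the noncoding gene Platr6 and had a score of 18.4. Fpgs, a folate enzyme gene of the methionine and folate list, was the nearest coding gene to a region 4686 bp downstream of its start, in an exon of Eng, with a score of 13.98.

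Away from the starts, 183 of the 360 regions were over 1 kb and 72 over 10 kb from every annotated start of any gene. The strongest of the latter (score 25.5) lay between genes at 4458072 to 4458246 on chromosome 6, 46655 bp upstream of the nearest coding start, that of Col1a2. Col1a2 was thus the nearest coding gene of the strongest far region and had a weak region at its own start. The next was 12894 bp upstream of the tubulin cofactor gene Tbcc (24.9) and had a weaker 5 µM region (8.99) 2943 bp away. Regions between genes followed near the activin subunit gene Inhbb (22.4), the secretoglobin gene Scgb1a1 (21.6), the homeobox gene Meis2 (21.5), the neuronal stathmin gene Stmn2 (21.5), Tmem86a (20.6), the filamin-binding gene Fblim1 (20.5) and the aquaporin gene Aqp3 (20.1). Intronic ones were in intron 1 of Cnst (22.2), intron 3 of Cacna1c, the L-type calcium channel gene (21.8), and intron 1 of Ldlrad4 (20.5). Of these 12 regions, 5 were over 20 kb from any 70 µM region and 5 within 1 kb of one, so strong far regions stood both alone and beside 70 µM regions. The region near Meis2 was 200 bp from one, and the region near Stmn2 was 43174 bp from the nearest.

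An AP-1 motif, TGANTCA, lay within the central 200 bp of 20 of the 183 regions over 1 kb from any start (10.9%, interval 6.81 to 16.4). Of the 31480 such regions at 70 µM, 6.47% had it (interval 6.20 to 6.75). In a 400 bp window the shares were 21.9% (interval 16.1 to 28.6) and 13.0%. At start sites the motif was rarer at both levels, 2.96% (interval 0.968 to 6.77) and 3.74% in 200 bp. The word reads the same on both strands apart from its middle base, and TGACTCA and TGAGTCA are the usual AP-1 sites; these 2 alone were in 15 of 183 regions (8.20%, interval 4.66 to 13.2) and 4.35% of the 70 µM regions. No test of these differences was made. Over the listed regions themselves, the median G and C was 47.8% at 5 µM and 48.8% at 70 µM. The makeup of the windows searched was not measured.

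The motif was not gathered at the centre. In 300 bp bins, a view chosen after seeing the data, out to 1050 bp on either side, the 5 µM share ran from 11.5% at both ends to 20.2% (interval 14.7 to 26.8) in the bin from 450 to 150 bp left of the midpoint, with 16.9% in the central bin, and the 70 µM share ran from 9.09% to 10.9%. Over the whole 2100 bp, 127 of 183 regions at 5 µM had a motif (69.4%, interval 62.2 to 76.0) and 51.5% of those at 70 µM. For TGACTCA and TGAGTCA alone these were 59.0% (interval 51.5 to 66.2) and 37.1%. The difference was thus one of the surroundings as much as of the called region. Between 1 and 10 kb from a start, the shares in the central 200 bp were 12.6% (interval 7.07 to 20.3) at 5 µM and 6.14% at 70 µM. Over 10 kb, with 72 regions, the 200 bp shares were 8.33% (interval 3.12 to 17.3) and 6.91%, and the 400 bp shares 20.8% (interval 12.2 to 32.0) and 13.65%. The difference between the distance bands was not tested.

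**Figure D5:**
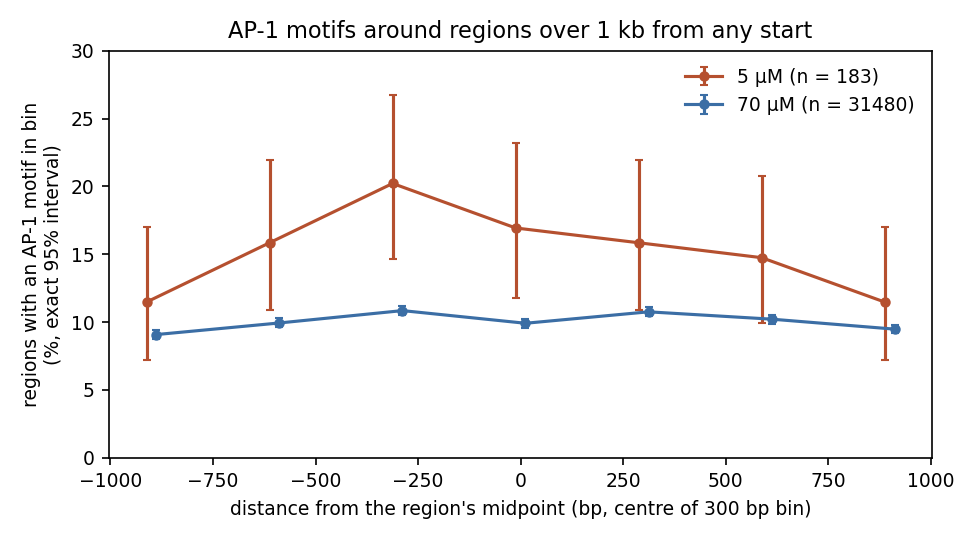
Share of regions over 1 kb from any annotated start with an AP-1 motif (TGANTCA) in each 300 bp bin (horizontal axis, bp from the region's midpoint), in percent with exact 95% intervals, for 183 regions at 5 µM and 31480 at 70 µM. The 5 µM values lie above the 70 µM values in every bin, from 11.5% to 20.2% against 9.09% to 10.9%, and the intervals overlap in the outermost bins and in those from 150 to 750 bp.

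The 20 regions with the motif had scores from 3.91 to 22.3, median 10.2, beside 13.5 for the 163 without. The strongest was in intron 2 of Dst, which encodes the cytoskeletal linker dystonin (22.3), 33436 bp from any 70 µM region. After it came the regions near Tmem86a (20.6), in intron 3 of Ltbp2 (19.9), in an exon of the noncoding gene BC051077 with Vsig10 nearest (19.3), and in intron 1 of Kirrel, an adhesion gene (18.65). Dcbld2 (17.0), the calcium-binding protein gene S100a11 (15.5) and Tmem119 (12.4) held theirs in intron 1, as did the amino acid transporter gene Slc7a5 (11.1), and that of the myocyte enhancer factor gene Mef2d (12.5) lay 2082 bp upstream. On the plus strand, as shown above, the motif reads TGACTCA near Dst, Kirrel and Mef2d and TGAGTCA near Tmem86a and S100a11. These are the same site read on opposite strands. Of the 20, 10 had a 70 µM region within 1 kb, and the motif was in 10 of 68 regions with such a neighbour (14.7%, interval 7.28 to 25.4) and in 10 of 115 without (8.70%, interval 4.25 to 15.4), which overlap.

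Of the 9 other motifs searched in 200 bp on both strands, none stood as far apart in percentage points away from the starts. The TEAD word ACATTCC was in 4.37% (interval 1.91 to 8.43) against 2.69%, the RUNX word TGTGGTT in 6.01% against 4.82%, the glucocorticoid receptor hexamer AGAACA in 17.5% (interval 12.3 to 23.8) against 16.5%, and CCAAT in 21.3% against 23.2%. The E-box CACGTG was in 2.73% against 2.69% and the SP/KLF word GGGCGGG in 2.19% against 2.35%. The NRF1 core TGCGCA was in 2.19% (interval 0.599 to 5.50) against 1.13%, and the ETS word CCGGAAG in 0.546% against 1.11%. Among words found at both levels, the NRF1 core (4 of 183 regions) and, the other way, the ETS word (1 of 183) stood further apart by ratio than AP-1. The cyclic AMP response element TGACGTCA was in 0 of 183, which allows up to 2.00%, and in 0.168% of the 70 µM regions. At start sites the SP/KLF word was in 17.2% (interval 11.8 to 23.7) against 11.7%, as in the Vcan and Dock1 sequences above, and the receptor hexamer in 8.88% against 11.3%. A match is a description of the letters and not of a bound factor, and a short word such as CCAAT or AGAACA is frequent in any sequence.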

How the data were processed

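H3K9ac ChIP and input DNA of HT22 cells had been sequenced in 4 libraries. The tools named in the submitters' processing notes are Bowtie 1.0.0, CASAVA 1.8 and, without a version, MACS2, and the build is mm10, and per the series' design text the differences were called with the bdgdiff function. Each region has a score in the deposited file, whose column has no name; in bdgdiff output it is a log10 likelihood ratio. The scaling of one library against another, which sets how many regions fall to each level, is not stated in the labels or the file. Positions were set against GENCODE M21 and RefSeq GRCm38.p6, of the same build, with Python 3.11.15 and scipy 1.17.1, counting from 1. A region was at a start when 1 bp or more of it fell within 1000 bp of a transcript start of a protein-coding gene; the others were placed by midpoint. Motifs were searched in 200 bp on the midpoint, on both strands. The functions were tested on simulated data.

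Members, lists and the rule for named genes were chosen with earlier results of these data known. Genes named are the 15 highest-scoring and 5 widest at starts, up to 6 members of a list, the 12 strongest regions over 10 kb away, the 10 strongest with a distal AP-1 motif, the 10 smallest gaps, and Nr3c1; Cebpb and list members with a region away from a start were chosen after their values were seen. The members of 1 list and 1 of the sequences are not reported here. Of the listed names, 4 were not found in the annotation (Ctgf, Cyr61, Mkl1 and Mkl2). Other settings were windows of 500 and 2500 bp, the midpoint, 5′-most starts, all genes, higher scores, autosomes, other distances and sequence windows; the filter on repeats, the narrower AP-1 word, the count of first introns and the split from 1 to 10 kb were chosen after seeing the data.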

Additional observations from a re-analysis of the deposited data

How the results depend on the processing

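Of 40 alternatives over 6 results, 27 stayed within the interval of the value given above, or within 1.5 times a count, and 13 did not. The share of 5 µM regions at a start (46.9%) was 34.7% with a 500 bp window, 58.9% with 2500 bp, 33.6% with the 5′-most starts and 40.6% with scores at or above the median; for 70 µM regions the first, second and last of these were 20.4%, 40.3% and 15.2%. The count of 193 genes became 84 with the higher scores. The share of them with a 70 µM region (67.4%) was 53.3% with a 500 bp window, 78.9% with 2500 bp and 52.1% with the 5′-most starts. The share over all protein-coding genes was not counted at these settings. A 70 µM neighbour was found for 25.8% within 500 bp and 68.9% within 5000 bp, beside 15.5% and 52.7% of the 70 µM regions. Within 1 kb it was found for 10.0% when regions of either level below its median score were left out. The 70 µM share was not counted under that filter, so whether the difference between the levels holds there is not known. The AP-1 share was 3.83% in 100 bp (3.08% at 70 µM) and 21.9% in 400 bp. In the region as deposited it was 8.20%, from 15 of 183 regions, against 5.70% at 70 µM. With scores at or above the median of the level it was 9.62%, from 10 of 104 regions, against 6.25%. Neither difference was tested. The windows and distances differ by construction; for the score filter, start-site regions scored lower (median 8.30) than intronic (11.3) or intergenic ones (13.7). Autosomes alone and the filter on repeats moved no result beyond its interval. No replicate could be left out, since the file holds no column of a single library, and depth is unknown.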
